A study of Mus musculus with 8 samples.

Results

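Transcripts of 10 purine salvage and AMP breakdown genes were followed in adult mouse testis, out of 56748 gene identifiers counted in the series. The genes are Ampd1, Ampd2, Ampd3, Nt5c1b, Ada, Adk, Pnp, Pnp2, Aprt and Hprt. They were chosen by enzyme role and matched by Ensembl identifier, with the levels and fold changes of these libraries already known. No threshold on any value was used, so their fold changes are given as a description. The series holds 4 libraries labelled Ak9-/- and 4 labelled WT, all from testes of adult mice, and it concerns an adenylate kinase gene studied for male fertility. The labels give no exact age, strain or deleted part of Ak9, and do not say whether each library came from its own animal. P-values therefore measure variation among the 8 libraries, part of which may be technical.

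AMP sits at a branch point of purine metabolism. Adenylate kinases interconvert AMP, ADP and ATP, while AMP deaminases remove its amino group to give IMP and nucleotidases remove its phosphate to give adenosine. Adenosine is either phosphorylated back to AMP by adenosine kinase or deaminated to inosine, which a phosphorylase splits into a free base and a sugar phosphate. Free bases are returned to nucleotides by phosphoribosyltransferases, so salvage spares the cost of new purine synthesis.

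The libraries held 18062780 to 23846772 counts in the labelled knockouts and 18763650 to 24415587 counts in the wild types. Ak9 itself had 69.3, 116, 101 and 40.6 CPM (counts scaled to a common library size, here with TMM factors) in labelled knockouts 1 to 4, against 108, 115, 122 and 107 CPM in wild types 1 to 4 (log2 fold change -0.47, SE 0.25, not past the threshold). Labelled knockout 2 lay inside the wild-type range, so directions are given between libraries by their labels. Testis markers were present, with none of the 8 round spermatid, 8 elongating spermatid or 8 Sertoli cell markers at 0 in any library. Labelled knockout 3 had the lowest summed spermatid markers, at 62.0% (round) and 56.0% (elongating) of the wild-type mean. The other labelled knockouts were at 109% to 138%. Wild types ran from 90.9% to 105% (round) and from 89.5% to 115% (elongating). Labelled knockouts 1 and 4 exceeded them in both lists, and labelled knockout 2 in the round list. Summed epididymis markers stood at 213 CPM in labelled knockout 3 and 29.6 CPM in labelled knockout 4. The other 6 libraries had 1.80 to 3.18 CPM. Of those 8 epididymis markers, 7 were at 0 counts in at least 1 library and 1 passed the count filter. In labelled knockout 3, 3 of the 8 were above every wild type and 2 were below. In bulk tissue, fewer cells of a type and less RNA per cell cannot be told apart.

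All 10 genes passed the count filter, and 0 of 10 passed edgeR's quasi-likelihood test at a Benjamini-Hochberg adjusted p under 0.05, where 0.0183% of the 21805 genes tested did. At an unadjusted p under 0.05 the count was also 0 of 10, beside 3.04% of all genes tested. DESeq2 and limma-voom called 0 of 10 as well, beside 0.211% and 0.0183% of all genes they tested. The labelled knockouts and wild types overlapped for every one of the 10, where 2.30% of all genes tested did not overlap. The log2 fold changes of labelled knockout over wild type had a median of 0.04, with 6 above 0 and 4 below, and the median over all genes tested was 0.01. The sign of the fold change turned for Ampd1, Ampd2, Ampd3, Nt5c1b, Pnp and Hprt in at least 1 of the 8 fits that left out a library. Missing the threshold does not show that the levels were equal, since the standard errors (SE) ran from 0.12 for Adk to 0.77 for Pnp2.

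**Figure D1:**
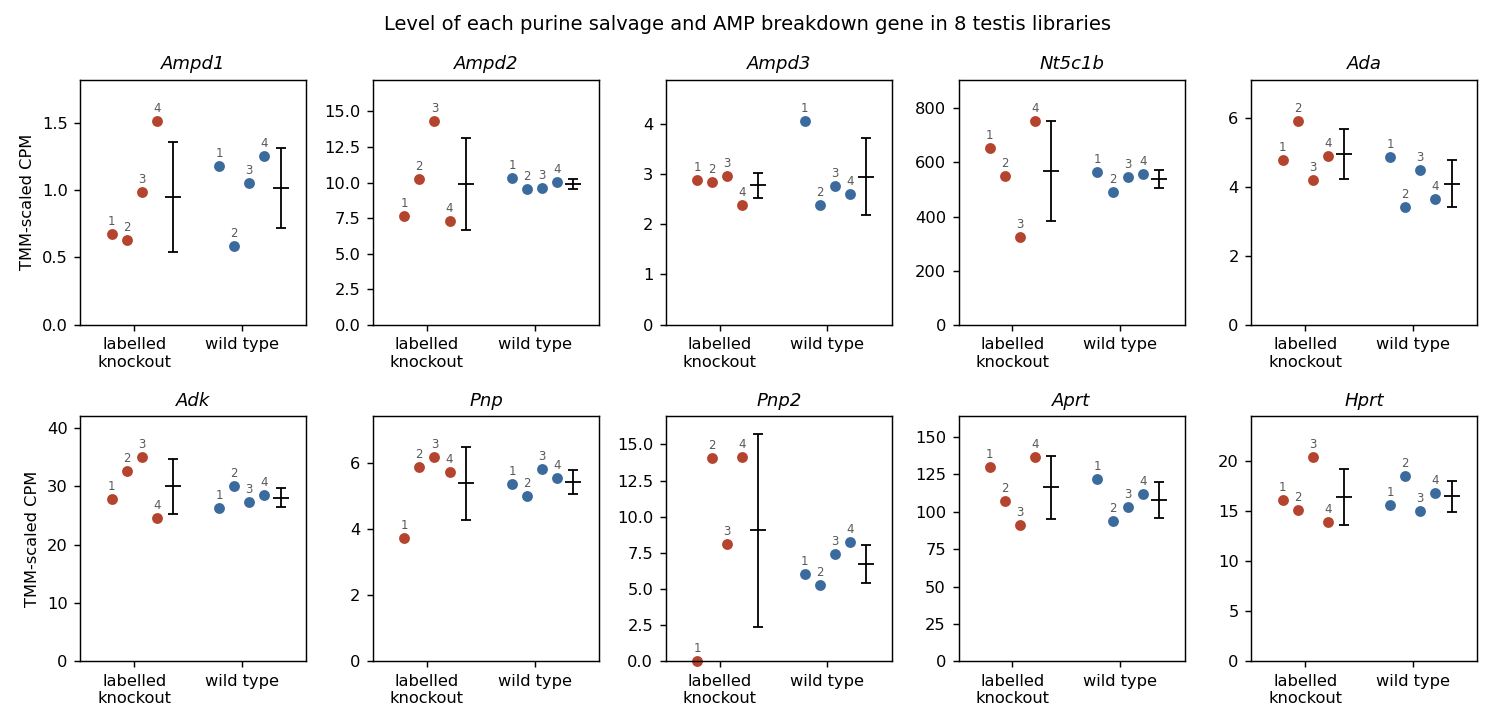
TMM-scaled CPM of each of the 10 genes (vertical axis, from 0) in labelled knockouts and wild types; each point is a library with its replicate number, and the bar beside each group is its mean with 1 SD (n = 4). The labelled knockouts spread more widely than the wild types for Nt5c1b and Ampd2, and Pnp2 is at 0 in labelled knockout 1 alone.

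The genes covered a wide range of levels. On a per-length scale, in TPM (counts scaled by exon length and library size) computed from the exon lengths of GENCODE M21, Nt5c1b led with 489 ± 107 TPM in labelled knockouts and 491 ± 18.1 TPM in wild types (SD, n = 4 each). That level placed it at rank 270 of 52073 genes in wild types, and it made up 60.5% of the summed TPM of the 10 genes there. Aprt came next with 236 ± 15.6 TPM in labelled knockouts and 228 ± 19.4 TPM in wild types. Adk and Hprt followed at 33.4 ± 2.82 and 29.8 ± 3.48 TPM in wild types, and their wild-type ranges overlapped. Pnp2 was next in wild types at 11.4 ± 2.14 TPM. Ampd2 at 6.01 ± 0.0921 TPM and Ada at 5.65 ± 0.839 TPM overlapped in wild types. Pnp at 4.09 ± 0.239 TPM, Ampd3 at 1.59 ± 0.370 TPM and Ampd1 at 0.803 ± 0.222 TPM closed the order. Apart from those 2 overlapping pairs, the wild-type ranges of neighbours in this order were separate. The labels do not state how reads matching both Pnp2 and Pnp were handled, so the places of these genes are uncertain.

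Nt5c1b (ENSMUSG00000020622, chromosome 12, 10369973 to 10390175, plus strand of GRCm38) encodes cytosolic 5'-nucleotidase 1B, which takes the phosphate off AMP to give adenosine. Its level was 653, 549, 323 and 755 CPM in labelled knockouts 1 to 4, against 565, 491, 545 and 557 CPM in wild types 1 to 4. The wild types lay close together, with labelled knockouts 1 and 4 higher than all of them, labelled knockout 3 lower than all of them and labelled knockout 2 among them. The log2 fold change was 0.08 (SE 0.21) with all 8 libraries. Its direction depended on single libraries: it was -0.0011 (SE 0.23) without labelled knockout 1, -0.088 (SE 0.20) without labelled knockout 4 and 0.26 (SE 0.10) without labelled knockout 3. The edgeR adjusted p was 0.210 or more whichever library was left out. The same libraries had summed elongating spermatid markers at 137%, 111%, 56.0% and 138% of the wild-type mean, beside Nt5c1b at 121%, 102%, 59.9% and 140%. The part of spermatid content in the Nt5c1b values was not tested.

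The AMP deaminases convert AMP to IMP, and mammals have separate genes best known from muscle (Ampd1), from liver and most other tissues (Ampd2) and from red blood cells (Ampd3). Ampd2 (ENSMUSG00000027889, chromosome 3) was the main one in these testes, with 63.9% to 78.5% of the summed deaminase TPM in labelled knockouts and 66.7% to 76.8% in wild types. It had 7.66, 10.2, 14.4 and 7.29 CPM in labelled knockouts 1 to 4, against 10.3, 9.56, 9.63 and 10.05 CPM in wild types 1 to 4. The wild types lay close together, while labelled knockout 3 was above all of them and labelled knockouts 1 and 4 were below all of them. Its mean was therefore almost the same in both groups, at 9.89 ± 3.26 CPM in labelled knockouts and 9.89 ± 0.357 CPM in wild types (SD, n = 4 each; log2 fold change 0.00, SE 0.21). The sign turned with the library left out: the log2 fold change was 0.11 (SE 0.21) without labelled knockout 1, 0.12 (SE 0.20) without labelled knockout 4 and -0.25 (SE 0.14) without labelled knockout 3. The edgeR adjusted p was 0.375 or more in each such fit. GENCODE M21 places 434 bases of Ampd2 exons opposite Gm12500 on the other strand, a gene with 6 to 13 counts in labelled knockouts and 5 to 9 in wild types.

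Ampd3 (ENSMUSG00000005686, chromosome 7) had 2.88, 2.85, 2.96 and 2.39 CPM in labelled knockouts 1 to 4, against 4.06, 2.38, 2.75 and 2.60 CPM in wild types 1 to 4. Wild type 1 was the highest library, and all 4 labelled knockouts lay within the wild-type range (log2 fold change -0.08, SE 0.22). In GENCODE M21, 195 bases of its exons overlap exons of Rnf141 on the other strand. Rnf141 had 1261 to 1956 counts per labelled knockout and 1529 to 2150 per wild type, against 41 to 64 and 52 to 76 for Ampd3. The labels do not state whether counting used strand, so reads of that overlap cannot be assigned. Ampd1 (ENSMUSG00000070385, chromosome 3) was near the limit of what these depths resolve, with 15, 13, 20 and 26 counts in labelled knockouts 1 to 4 and 22, 13, 26 and 25 counts in wild types 1 to 4. Those counts correspond to 0.676, 0.627, 0.987 and 1.52 CPM in the labelled knockouts, against 1.18, 0.584, 1.05 and 1.25 CPM in the wild types (log2 fold change -0.10, SE 0.36).

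The per-length ratio of Nt5c1b to the 3 deaminases summed was 88.1, 60.6, 26.5 and 99.3 in labelled knockouts 1 to 4, against 54.7, 59.1, 60.7 and 59.7 in wild types 1 to 4. Labelled knockout 3 was below and labelled knockouts 1 and 4 were above the narrow wild-type range, and labelled knockout 2 lay inside it. Both parts of the ratio moved in labelled knockout 3, with Nt5c1b low and Ampd2 high. Both also moved in labelled knockouts 1 and 4, with Nt5c1b high and Ampd2 low.

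Adenosine, the product of the nucleotidase, has 2 competing enzymes. Adk (ENSMUSG00000039197, chromosome 14) encodes adenosine kinase, which returns adenosine to AMP. It had 27.8, 32.5, 34.9 and 24.5 CPM in labelled knockouts 1 to 4, against 26.2, 30.0, 27.3 and 28.4 CPM in wild types 1 to 4 (log2 fold change 0.10, SE 0.12). Labelled knockouts 2 and 3 were above and labelled knockout 4 was below every wild type. Ada (ENSMUSG00000017697, chromosome 2) encodes adenosine deaminase, which turns adenosine into inosine. It had 4.78, 5.93, 4.19 and 4.90 CPM in labelled knockouts 1 to 4, against 4.86, 3.41, 4.49 and 3.65 CPM in wild types 1 to 4. Its log2 fold change of 0.27 (SE 0.19) had the smallest unadjusted p of the 10 genes, 0.181 in edgeR's test. Labelled knockouts 2 and 4 exceeded every wild type, and the other labelled knockouts lay inside the wild-type range. Per length, Adk exceeded Ada 4.33- to 7.20-fold in labelled knockouts and 4.67- to 7.61-fold in wild types.

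The purine nucleoside phosphorylases split inosine and guanosine into hypoxanthine or guanine and ribose 1-phosphate. Mouse has a pair of neighbouring genes for this step, Pnp (ENSMUSG00000115338) and Pnp2 (ENSMUSG00000068417), both on the plus strand of chromosome 14. In GENCODE M21 on GRCm38, Pnp is annotated from 50931082 to 50965237 and Pnp2 from 50955992 to 50964749, so the Pnp2 locus lies within the annotated span of Pnp without sharing an exon base. The coding sequences, 867 bases for Pnp and 915 for Pnp2, aligned with 851 identical bases, 16 differing bases and 48 bases of Pnp2 without a partner. The stretch below is shown because it holds 7 of the 16 differences. It separates only reads that cover its differing bases, most of which lie near its end. It is the 60 coding bases within 1 exon where the pair differs most, chr14:50951558-50951617 for Pnp and chr14:50964410-50964469 for Pnp2 (plus strand, GRCm38), with differing bases in capitals:
Pnp: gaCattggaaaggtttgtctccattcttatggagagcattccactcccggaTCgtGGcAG
Pnp2: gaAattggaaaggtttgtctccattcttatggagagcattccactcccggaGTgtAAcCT

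Elsewhere the pair is harder to separate. Of the 866 windows of 50 bases in the Pnp2 coding sequence, 425 (49.1%) occur unchanged in that of Pnp. The labels do not state how reads matching both genes were handled, so the counts of both genes are uncertain to that extent. A further annotated gene that overlaps both on the same strand, Gm49342, shares 718 exon bases with Pnp and 32 with Pnp2. Gm49342 had 1 count in labelled knockout 2 and 0 counts in the other 7 libraries. How reads of those shared bases were counted is not stated either, which bears on the level of Pnp and its ratio to Pnp2. No other gene of the 10 had a copy of at least 95% identity over at least 50% of the shorter transcript in GENCODE M21.

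Pnp2 had the largest SD of log2(CPM + 0.5) of the 10 genes in labelled knockouts, 2.33, while in wild types its 0.27 was below the 0.31 of Ampd1 and the 0.29 of Ampd3. It had 0, 291, 165 and 242 raw counts in labelled knockouts 1 to 4, against 113, 118, 183 and 165 counts in wild types 1 to 4. On the CPM scale these were 0, 14.04, 8.14 and 14.1 in the labelled knockouts, against 6.04, 5.30, 7.40 and 8.25 in the wild types. Labelled knockout 1 thus had no Pnp2 count, labelled knockouts 2 and 4 exceeded all wild types, and labelled knockout 3 lay within their range. The count of 0 allows up to 0.135 CPM in labelled knockout 1 (3 counts, the 95% limit, for counting error only), which is 2.00% of the wild-type mean. The fit gave a log2 fold change of 0.42 (SE 0.77) over all 8 libraries. It was 0.83 (SE 0.23) without labelled knockout 1, 0.11 (SE 0.88) without labelled knockout 2 and 0.13 (SE 0.83) without labelled knockout 4, with an edgeR adjusted p of 0.491 or more whichever library was left out. The direction turned with other methods, at -0.077 with the replicate block, -1.57 by limma-voom and -2.67 by limma-voom with sample quality weights.

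Pnp, in contrast, was counted in every library. It had 83, 122, 125 and 98 counts in labelled knockouts 1 to 4, against 100, 111, 144 and 111 counts in wild types 1 to 4. Its level of 3.74 CPM in labelled knockout 1 was the lowest of the 8 libraries, and the other labelled knockouts had 5.89, 6.17 and 5.71 CPM, against 5.34, 4.98, 5.82 and 5.55 CPM in the wild types. The log2 fold change of Pnp was -0.01 (SE 0.19). The pair summed to 3.74, 19.9, 14.3 and 19.8 CPM in labelled knockouts 1 to 4, against 11.4, 10.3, 13.2 and 13.8 CPM in wild types 1 to 4. The ratio of Pnp2 to Pnp counts was 2.39, 1.32 and 2.47 in labelled knockouts 2 to 4, against 1.13, 1.06, 1.27 and 1.49 in wild types 1 to 4.

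**Figure D2:**
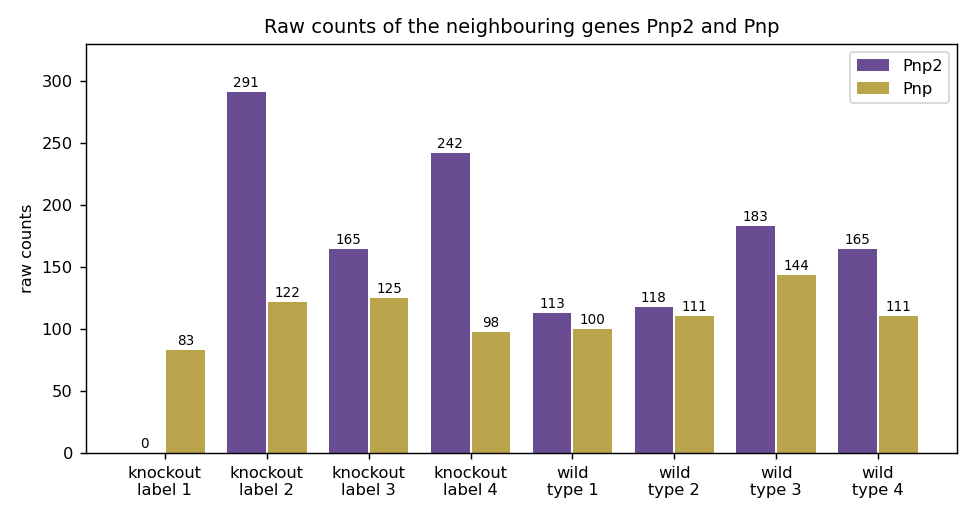
Raw counts (vertical axis) of Pnp2 and Pnp in each of the 4 labelled knockout and 4 wild-type libraries, with the count printed above each bar. Pnp2 has 0 counts in labelled knockout 1 and 291 in labelled knockout 2, while Pnp lies between 83 and 144 counts throughout.

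The last step of salvage joins a free base to phosphoribosyl pyrophosphate (PRPP). Aprt (ENSMUSG00000006589, chromosome 8) encodes adenine phosphoribosyltransferase, which makes AMP from adenine. It had 130, 107, 91.0 and 136 CPM in labelled knockouts 1 to 4, against 122, 93.9, 103 and 112 CPM in wild types 1 to 4 (log2 fold change 0.11, SE 0.14). Like Nt5c1b, it exceeded all wild types in labelled knockouts 1 and 4 and fell short of all of them in labelled knockout 3. Hprt (ENSMUSG00000025630, chromosome X) encodes hypoxanthine phosphoribosyltransferase, which makes IMP and GMP from hypoxanthine and guanine. It had 16.1, 15.2, 20.4 and 13.9 CPM in labelled knockouts 1 to 4, against 15.6, 18.5, 15.01 and 16.8 CPM in wild types 1 to 4 (log2 fold change -0.01, SE 0.14). Hprt lay beyond the wild types in the opposite sense to Aprt, high in labelled knockout 3 and low in labelled knockout 4.

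**Figure D3:**
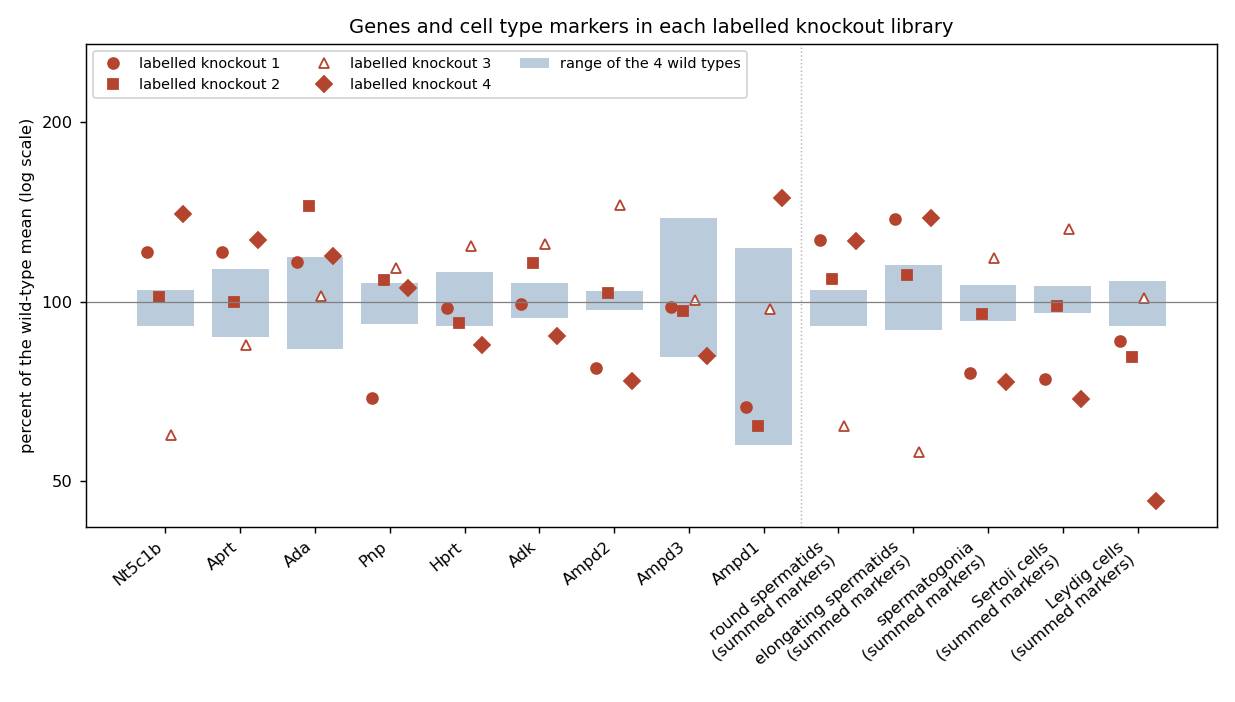
Level in each labelled knockout as a percent of the wild-type mean (vertical axis, log scale) for 9 of the 10 genes and for summed markers of 5 cell types; bands give the range of the 4 wild types, and Pnp2 is left out because of its 0. Labelled knockout 3 is low for Nt5c1b (59.9%) and Aprt (84.4%) as for both spermatid lists. It is high for Ampd2 (145%), Adk (125%), Hprt (124%) and Pnp (114%) as for Sertoli (132%) and spermatogonial (118%) markers. In labelled knockout 1, Sertoli markers are at 74.2%, Ampd2 at 77.5%, Pnp at 69.0%, Adk at 99.1% and Hprt at 97.7%.

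The spread within the labelled knockouts was in most cases wider than that within the wild types. The SD of log2(CPM + 0.5) was larger in labelled knockouts than in wild types for 8 of the 10 genes, Ampd3 and Ada being the exceptions, and for 84.9% of all genes tested. The median SD of the 10 genes was 0.28 in labelled knockouts and 0.15 in wild types, close to the 0.30 and 0.13 over all genes tested. In labelled knockout 1, 2 of the 10 genes were above and 3 below every wild type, beside 32.5% and 32.0% of all genes tested. In labelled knockout 2, 4 of the 10 were above and 0 below, beside 26.3% and 26.4%. In labelled knockout 3, 4 of the 10 genes were above and 2 below every wild type, beside 33.5% and 36.1% of all genes tested. In labelled knockout 4, 5 of the 10 were above and 3 below, beside 34.0% and 33.9%.

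Several cell type marker lists moved in the same libraries, though not all. Summed spermatocyte markers were at 93.1%, 111%, 109% and 96.3% of the wild-type mean in labelled knockouts 1 to 4. The wild types ran from 90.3% to 111% for that list. Macrophage markers were at 64.5%, 101%, 97.1% and 75.2% in labelled knockouts 1 to 4. Endothelial markers were at 84.3% to 91.0% in labelled knockouts, and blood cell markers at 91.6% to 127%. Summed Sertoli cell markers were at 74.2%, 98.3%, 132% and 68.7% of the wild-type mean in labelled knockouts 1 to 4, and summed spermatogonial markers at 75.9%, 95.5%, 118% and 73.3%. Ampd2, at 77.5%, 103%, 145% and 73.7%, had the same order of labelled knockouts as both the Sertoli and the spermatogonial list. Labelled knockout 3 was highest and labelled knockout 4 lowest. Summed peritubular myoid markers, at 115%, 139%, 137% and 81.0%, were also lowest in labelled knockout 4 but highest in labelled knockout 2. In labelled knockout 3, 7 of 8 Sertoli markers were above every wild type and 1 was below. Of 8 spermatogonial markers, 4 were above and 1 was below every wild type there. All 16 round and elongating spermatid markers were below every wild type in that library. Summed Leydig cell markers were at 46.4% in labelled knockout 4 and at 80.7% to 101% in the other labelled knockouts. The part of cell composition, and that of the epididymis markers seen in labelled knockouts 3 and 4, in the levels of the 10 genes was not tested.

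The rest of purine metabolism was read from 49 further genes, of which 44 passed the count filter. None of the 44 was called by edgeR, DESeq2 or limma-voom over all genes, and 0 had an unadjusted edgeR p under 0.05. Their median log2 fold change was -0.04, with 16 above 0 and 28 below, beside a median of 0.01 over all genes tested. Of the 21805 genes tested, 10272 were below 0.

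Among the 12 genes of new purine synthesis and PRPP supply the median log2 fold change was -0.0011. Prps1l1, the PRPP synthetase gene known from testis, was the most abundant by CPM, at 201 ± 64.8 CPM in labelled knockouts and 194 ± 8.81 CPM in wild types (SD, n = 4 each; log2 fold change 0.05, SE 0.20). The smallest p in this set belonged to Prps1l3, a gene of the same family, at 39.1 ± 3.49 CPM in labelled knockouts and 34.9 ± 2.06 CPM in wild types (log2 fold change 0.17, SE 0.10).

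Of 7 genes that lead from IMP to AMP and GMP, 2 had fold changes above 0 and 5 below. Gmps, which makes GMP, was the most abundant by CPM, at 377 ± 74.9 CPM in labelled knockouts and 341 ± 8.17 CPM in wild types (log2 fold change 0.14, SE 0.14). Gmpr, which returns GMP to IMP, had 5.49 ± 1.14 CPM in labelled knockouts and 6.87 ± 0.719 CPM in wild types (log2 fold change -0.32, SE 0.19). These pairs of values overlapped between the groups.

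The other 5'-nucleotidases numbered 7, of which 6 were tested, with log2 fold changes of -0.03 to 0.18. Nt5c2, which prefers IMP and GMP, had 85.6 ± 5.28 CPM in labelled knockouts and 86.5 ± 2.51 CPM in wild types (log2 fold change -0.01, SE 0.09). Nt5c had 29.2 ± 4.16 CPM in labelled knockouts and 25.9 ± 2.99 CPM in wild types (log2 fold change 0.18, SE 0.13). Nt5c1a, the closest relative of Nt5c1b, did not pass the filter, with at most 0.359 CPM in any library.

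Of the genes of further breakdown and nucleoside handling, 9 of 12 were tested, with 7 below 0. Allc, the allantoicase gene, was the most abundant by CPM, with 484, 396, 238 and 507 CPM in labelled knockouts 1 to 4, against 406, 341, 377 and 393 CPM in wild types 1 to 4 (log2 fold change 0.10, SE 0.20). Within each group its libraries ran in the order of Nt5c1b, with labelled knockout 3 lowest and labelled knockout 4 highest. Gda, guanine deaminase, had 4.33 ± 0.446 CPM in labelled knockouts and 5.14 ± 0.333 CPM in wild types (log2 fold change -0.25, SE 0.16).

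Nucleoside transporters and adenosine receptors had the lowest median of the 5 sets, -0.15, with 8 of 10 tested genes below 0. Slc29a3, an equilibrative nucleoside transporter of lysosomes, had the smallest p of all 44 genes. It had 51.4, 47.5, 34.6 and 38.1 CPM in labelled knockouts 1 to 4, against 58.1, 46.9, 56.0 and 48.9 CPM in wild types 1 to 4. The log2 fold change was -0.29 (SE 0.14), with an unadjusted edgeR p of 0.0606. Labelled knockouts 3 and 4 were below every wild type, and the other labelled knockouts lay within the wild-type range. Slc29a1, the main transporter of this family at the cell surface, had 82.3 ± 8.53 CPM in labelled knockouts and 86.7 ± 2.99 CPM in wild types (log2 fold change -0.08, SE 0.10).

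**Figure D4:**
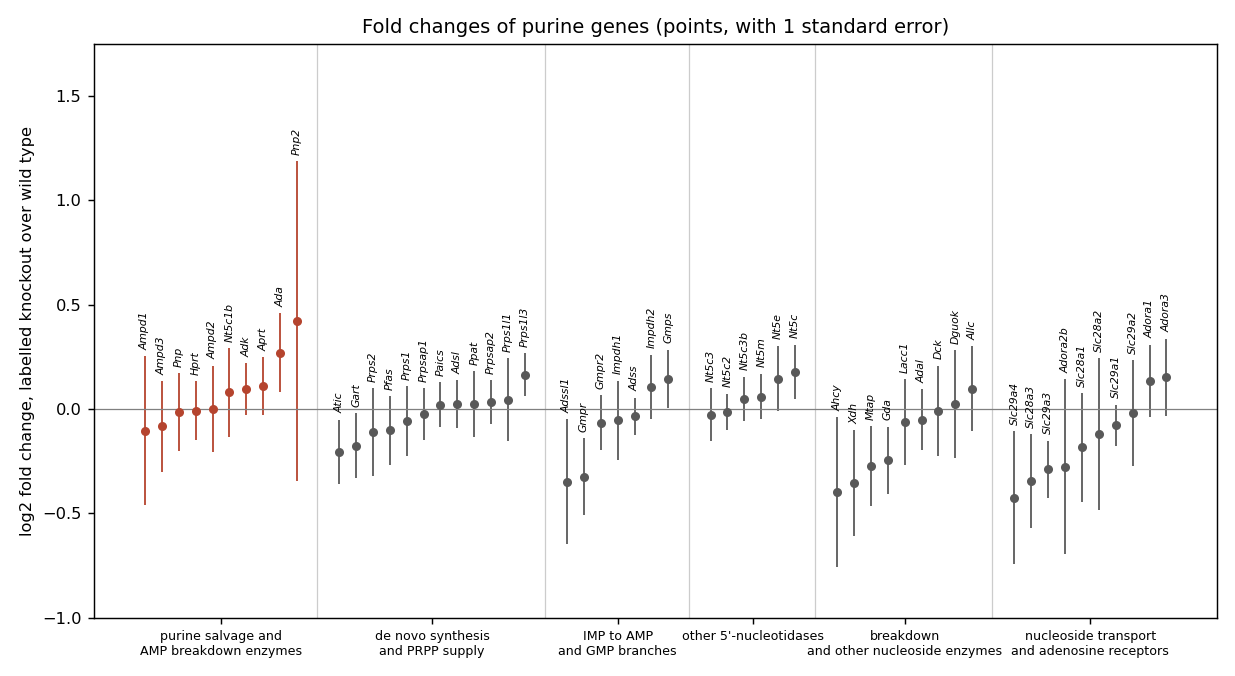
Log2 fold change of labelled knockout over wild type (vertical axis) with 1 SE from edgeR's fit, for the 10 purine salvage and AMP breakdown genes and for 44 other purine genes in 5 sets. The points lie between -0.43 and 0.42, and Pnp2 has the widest error.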

How the data were processed

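Libraries were made from total RNA of adult testis with an Illumina TruSeq kit, per the labels' protocols. The values are raw counts per Ensembl gene as deposited by the authors, and the submitters' processing notes name the builds GRCm39 and mm39 and the tools Trimmomatic, STAR, featureCounts and DESeq2. Tool versions, annotation, strand setting and handling of multi-mapping reads: not given in the sources used here. Of 56748 identifiers, 52073 had a symbol. Library pairs within groups differed by a chi-square of at least 4.59 per gene, beyond sampling noise.

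Genes were filtered with filterByExpr (minimum count 10, minimum total 15), scaled by TMM and compared with edgeR 4.0.16 (R 4.3.3) by the quasi-likelihood test without covariates. P-values were adjusted by Benjamini-Hochberg over all genes, with a threshold of 0.05. SE was computed by dividing the absolute log2 fold change by the square root of F. Alternatives were RLE factors, other filters, the replicate block, DESeq2 1.42.0, limma-voom (limma 3.58.1) and leaving out each library. The scripts were tested on simulated counts of 21805 genes. By edgeR, 53 of 100 changes of 1 log2 unit and 96 of 100 of 2 log2 units were found, with 8 false calls. False calls numbered 37 by DESeq2 and 5 by limma-voom. Lengths, overlaps and sequences come from GENCODE M21 on GRCm38, not the authors' build, and copies were sought with blastn 2.17.0. A count of 0 allows up to 0.123 to 0.166 CPM by library total.

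The members and lists were chosen with earlier results of these data known. All 10 members are named, then from each further list the gene with the smallest p and the one with the highest mean CPM. Rnf141 and Gm49342 are named because they overlap a member. Nt5c1a, Ahcy and the genes of the closing part were named after their values were seen.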

Additional observations from a re-analysis of the deposited data

Results flagged for a closer look

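In 132 groups of 4 libraries, 4 held a library far from the other 3 (Dixon's test at 95%, which marks about 1 in 20 groups by chance). All 4 concerned labelled knockout 3. Nt5c3b, a 5'-nucleotidase gene, had 64.9 CPM there, against 81.4 to 82.6 CPM in the other labelled knockouts. Mtap, the methylthioadenosine phosphorylase gene of a neighbouring salvage route, had 9.92 CPM there, against 6.13 to 6.58 CPM in the other labelled knockouts. Adora1, an adenosine receptor gene, had 74.1 CPM there, against 40.4 to 45.1 CPM. Summed epididymis markers had 213 CPM there, against 2.30 to 29.6 CPM. None of the 10 purine salvage and AMP breakdown genes was among them by this test, Pnp2 included, since labelled knockouts 2 to 4 were themselves spread between 8.14 and 14.1 CPM.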

How the results depend on the processing

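The count of members past the threshold was 0 under every alternative run, as was that of the other purine genes. Of 149 fold changes of members under alternatives, 125 kept their direction, and the smallest edgeR, DESeq2 or limma-voom adjusted p was 0.210. Over all genes, 46 passed with DESeq2, 26 without a low-count filter and 14 by limma-voom with sample quality weights, against 4 in the fit reported, and 3 to 35 when a library was left out (33 without labelled knockout 1, 35 without 3, 33 without 4). Ampd2, at 0.00 in the fit reported, had -0.010 without a filter, -0.0028 with a mean of at least 1 CPM, -0.048 with the replicate block, -0.047 by limma-voom and -0.20 with quality weights. Pnp2, at 0.42, had -0.077 with the replicate block, -1.57 by limma-voom and -2.67 with quality weights. limma-voom fits log values, while the replicate block was fitted to counts by edgeR. What turned the direction of Pnp2 in these fits was not tested. Leaving out each library gave log2 fold changes of -0.40 to 0.037 for Ampd1, -0.25 to 0.12 for Ampd2, -0.17 to 0.11 for Ampd3, -0.088 to 0.26 for Nt5c1b, 0.16 to 0.36 for Ada, 0.0031 to 0.18 for Adk, -0.10 to 0.12 for Pnp, 0.11 to 0.83 for Pnp2, 0.02 to 0.20 for Aprt and -0.14 to 0.062 for Hprt. Ampd1 was not tested at a mean of 1 CPM, its mean being lower. Replicate numbers are shared between the groups in the titles. Deviations of same-numbered libraries correlated at 0.09, 0.04, -0.03 and 0.03. Differently numbered pairs reached 0.23 (labelled knockout 3 with wild type 2) and -0.15 (labelled knockout 1 with wild type 2). No pairing by number was seen, but such correlations cannot exclude one. With the replicate block 4 genes passed, and no member did. At these depths the counts of Ampd1, 13 to 26 per library, resolve large differences only.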

Other observations

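Pnp2 was not alone in its absence from labelled knockout 1. Genes with 0 counts in 1 library and at least 20 counts in each of the other 7 numbered 19 in labelled knockout 1, 1 in labelled knockout 2, 1 in labelled knockout 3 and 2 in labelled knockout 4, against 0 in each of the 4 wild types. The minimum of 20 counts was set after the data were examined. Another of the 19 was Trim12a, of the tripartite motif family. Trim12a had 0, 73, 43 and 41 counts in the labelled knockouts, against 31, 61, 53 and 44 counts in the wild types. Genes with predicted or clone names were also among the 19, such as Gm9732 and 4933434M16Rik.

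Ahcy, which splits the adenosine off S-adenosylhomocysteine, was lowest in labelled knockout 2, with labelled knockouts 1 and 3 also below every wild type. It had 36.7, 8.40, 30.1 and 44.1 CPM in labelled knockouts 1 to 4, against 37.4, 38.6, 37.7 and 43.4 CPM in wild types 1 to 4. Its log2 fold change over all 8 libraries was -0.40 (SE 0.36).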
